A study of Homo sapiens with 9 samples.

Results

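Epithelial junction and polarity genes were followed in HCT116 cells, an established human colorectal carcinoma line, after knockdown of ORM1. The set was a fixed list of 40 genes of adherens junctions, tight junctions and desmosomes, of cell polarity and membrane traffic, and of the epithelial surface, with a pair of epithelial transcription factors. All 40 were found by symbol among the 61806 identifiers of the count table, and all 40 passed the filter on low counts, which left 20932 genes for testing. The groups were HCT116 cells transfected with ORM1 siRNA 1 (labelled ORM1-siRNA 1#), with ORM1 siRNA 2 (ORM1-siRNA 2#), or with a control siRNA, with 3 RNA-seq libraries in each. The same parental line, medium and lipid transfection reagent were used in all of them, and no group carries a stable genetic change. The question the design addresses is how expression differed after ORM1 knockdown, with a pair of siRNAs against the same target.

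Epithelial cells are joined by adherens junctions, in which E-cadherin binds its neighbour outside the cell and catenins inside, by tight junctions, in which claudins seal the space between cells, and by desmosomes, which anchor keratin filaments. The Crumbs and Par complexes mark the apical side of the cell and set where tight junctions form. Many of these genes are driven by Grainyhead-like and OVOL transcription factors and are repressed by ZEB and Snail family factors, which bind the DNA letters CAGGTG, called an E-box. In the intestine these junctions form the barrier between the lumen and the tissue.

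ORM1, the targeted gene, encodes alpha-1-acid glycoprotein 1 and had 0, 0 and 5 counts under siRNA 1, 8, 0 and 12 counts under siRNA 2, and 63, 56 and 59 counts in control. Its log2 change was −5.09 (SE 1.06) under siRNA 1 and −3.20 (SE 0.90) under siRNA 2, with adjusted p-values of 0.0029 and 0.019 in edgeR's quasi-likelihood test. The libraries held 60698684 to 71431723 counts. Levels are given as counts per 1000000 (CPM), scaled for composition, so that changes are relative to all RNA of a library. On this scale ORM1 was at only 0.894 to 0.954 CPM in control, so the target was low before knockdown. All libraries carry the batch value Day 3, and nothing in the labels says whether replicates were grown apart. What the p-values measure is the spread between libraries, possibly technical only. Of the colorectal epithelium markers, KRT8, KRT18, KRT19, EPCAM, CDH1 and CDX2 were present in every library, while VIL1 and CDX1 were at or near 0. The summed level of this 9-gene marker list was 3557 to 3728 CPM under siRNA 1, 3600 to 3799 CPM under siRNA 2 and 4203 to 4499 CPM in control. Most of that sum is KRT8, KRT18 and KRT19, which fell under both siRNAs. EPCAM, CDH1 and KRT20 rose under siRNA 1, and EPCAM and CDH1 also rose under siRNA 2. Of markers of other cell types, 6 of 7 fibroblast, 4 of 5 leukocyte and 3 of 4 endothelial genes were under 1 CPM in every library, and the exceptions were COL1A1, CD68 and VWF. The summed fibroblast list was at 48.0 to 50.1 CPM under siRNA 1, 41.5 to 44.7 CPM under siRNA 2 and 51.8 to 59.5 CPM in control, nearly all of it COL1A1. The summed leukocyte list was at 11 to 13.1 CPM under siRNA 1, 5.58 to 8.92 CPM under siRNA 2 and 9.80 to 10.3 CPM in control, nearly all of it CD68, and their part in the results was not tested.

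Promoter sequences are shown for 4 of the genes because they hold the E-box letters that the ZEB and Snail repressors bind, and because their RNAs moved in different ways. Each is the 250 bases upstream of the start in RefSeq, on build GRCh38.p14, read 5′ to 3′, with the E-box letters CAGGTG or their complement CACCTG in capitals. CRB3, the Crumbs protein of most epithelia, has 5 of them (chr19:6464021-6464270, plus strand). RAB25, a small GTPase of apical recycling, has 1 that begins 41 bases before the start (chr1:156060910-156061159, plus strand). DSP, which encodes desmoplakin, has 2 (chr6:7541421-7541670, plus strand), and OCLN, which encodes occludin, has 1 that begins 33 bases before the start (chr5:69492297-69492546, plus strand).
CRB3: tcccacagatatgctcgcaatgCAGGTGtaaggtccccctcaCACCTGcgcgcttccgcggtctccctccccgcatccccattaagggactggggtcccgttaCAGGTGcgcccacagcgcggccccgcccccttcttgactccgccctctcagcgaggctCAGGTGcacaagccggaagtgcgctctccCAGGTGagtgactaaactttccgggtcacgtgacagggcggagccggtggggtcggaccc
RAB25: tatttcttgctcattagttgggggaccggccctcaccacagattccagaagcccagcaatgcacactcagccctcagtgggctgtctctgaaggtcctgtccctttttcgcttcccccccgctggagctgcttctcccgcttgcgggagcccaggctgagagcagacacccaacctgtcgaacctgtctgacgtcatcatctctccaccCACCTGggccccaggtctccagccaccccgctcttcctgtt
DSP: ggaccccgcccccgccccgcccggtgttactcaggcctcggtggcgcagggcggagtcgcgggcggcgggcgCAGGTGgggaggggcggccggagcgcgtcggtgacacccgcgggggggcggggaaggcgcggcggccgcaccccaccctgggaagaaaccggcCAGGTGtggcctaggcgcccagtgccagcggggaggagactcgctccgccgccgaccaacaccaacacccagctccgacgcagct
OCLN: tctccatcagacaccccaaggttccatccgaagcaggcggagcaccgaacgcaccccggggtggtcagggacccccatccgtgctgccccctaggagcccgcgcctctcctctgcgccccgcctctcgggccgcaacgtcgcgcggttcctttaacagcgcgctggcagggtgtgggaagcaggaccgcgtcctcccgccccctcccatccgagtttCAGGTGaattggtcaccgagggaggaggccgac
Of the 40 genes, 25 had a promoter in the RefSeq table. Of these, 9 held CAGGTG on either strand, or 36.0%, against 4788 of 27305 promoters of all genes, or 17.5%. The letters AACCGGTT, the site of Grainyhead-like factors, were in 0 of the 25 and in 28 of the 27305. Letters that rare would be absent from nearly any 25 promoters, so the 0 says nothing about the set, and variants were not searched. The other genes with the E-box letters were TJP1, DSG2, DSC2, PATJ and PROM1. A match describes the letters in this window and is not evidence of binding.

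Under siRNA 1, 26 of the 40 genes rose and 8 fell against control, where 15.7% of all 20932 tested genes rose and 14.8% fell, or 30.5% in either direction. The threshold was an adjusted p of 0.05 in edgeR's quasi-likelihood test, adjusted by Benjamini and Hochberg's method over all genes tested. The median log2 change of the set was 0.27 under siRNA 1, against 0.01 for all genes. Under siRNA 2, 12 of the 40 rose and 10 fell against control, where 14.2% and 12.6% of all genes did, or 26.7% in either direction; with library size as the only scaling the counts were 10 and 11. The median log2 change of the set was 0.06 under siRNA 2, against 0.00 for all genes (−0.00354). With only genes of at least 1 CPM in 3 libraries, 15069 were tested. Of these, 3325 rose and 3237 fell under siRNA 1, and 2990 rose and 2810 fell under siRNA 2. The called shares of these better expressed genes were thus above 30.5% and 26.7%. Within the set that filter left the counts at 26 and 8 under siRNA 1 and 12 and 10 under siRNA 2. Both comparisons use the same control libraries. The summed level of the 40 genes was 4716 ± 3.71 CPM under siRNA 1, 4284 ± 24.9 CPM under siRNA 2 and 4211 ± 37.3 CPM in control (SD, n = 3 each). In a bulk sample, fewer cells of a type and less RNA per cell cannot be told apart.

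**Figure D1:**
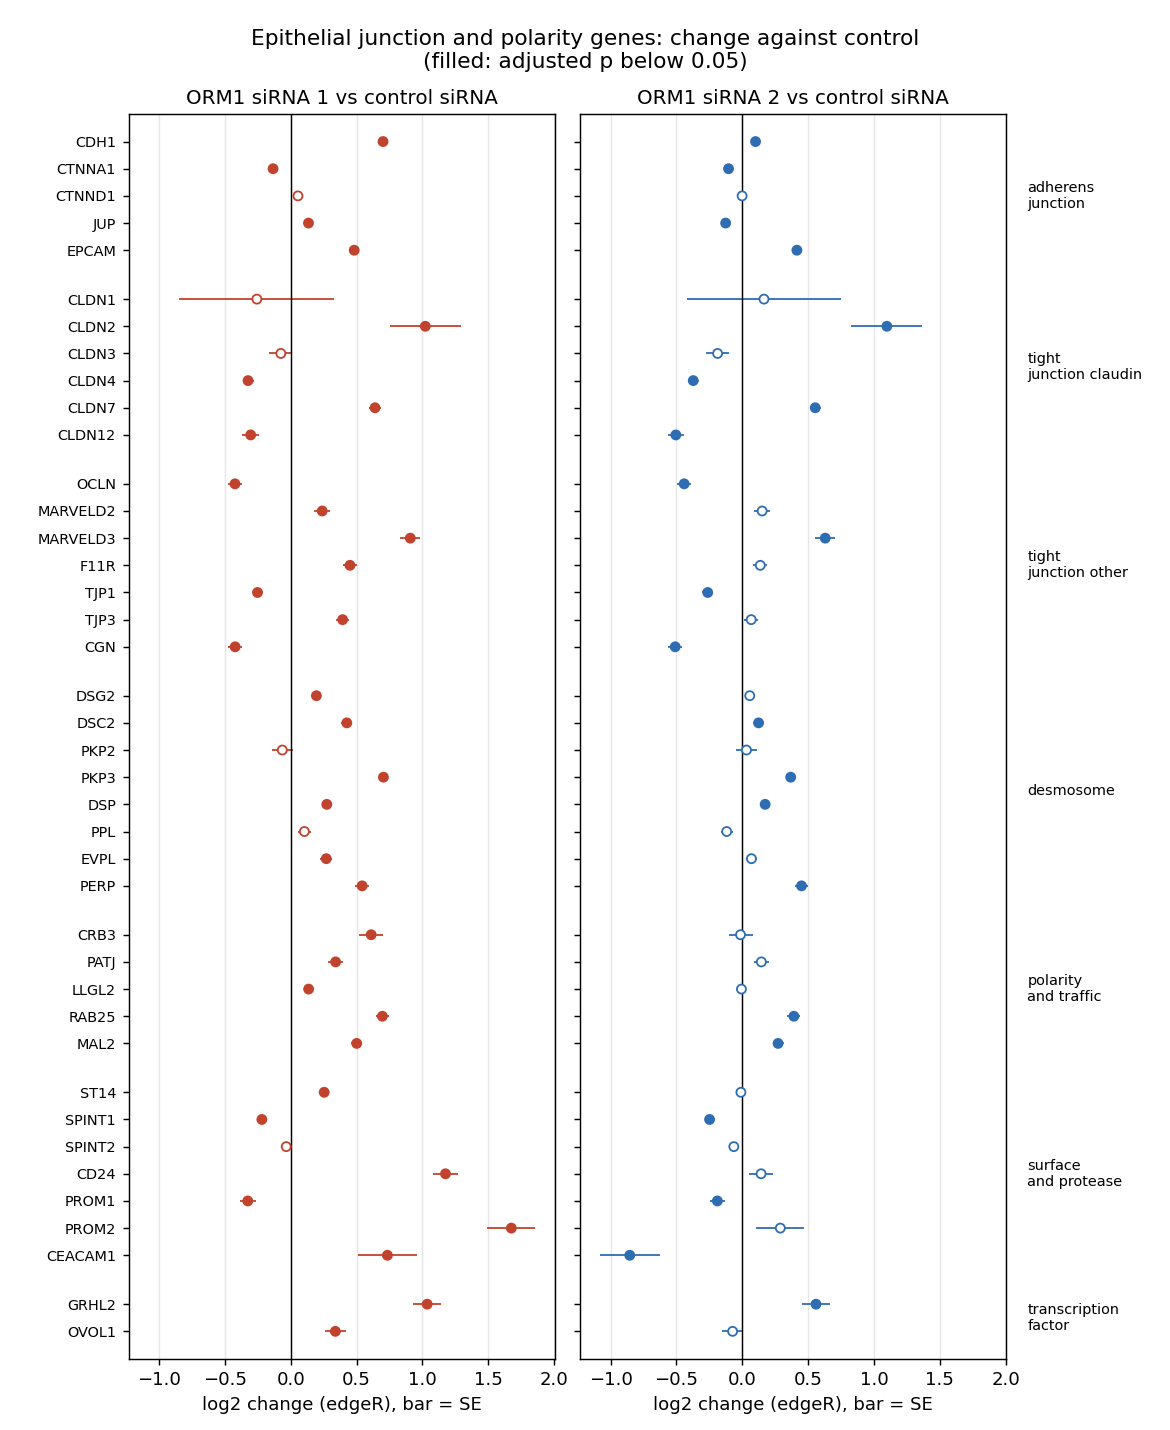
The log2 change of each of the 40 genes against control is plotted for siRNA 1 (left, red) and siRNA 2 (right, blue), grouped by role; points are edgeR estimates, bars are standard errors and filled points have an adjusted p below 0.05. Under siRNA 1, 26 filled points lie right of 0 and 8 lie left of it, and under siRNA 2 the numbers are 12 and 10.

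Per length of exon, the genes spanned a wide range of levels in these cells. The length was that of all annotated exons of a gene merged, not of the transcript expressed, and the order of genes depends on it. In control the highest mean levels were 59.7 CPM per kb for CTNNA1, the alpha-catenin that links cadherins to actin, 59.0 for the plakoglobin gene JUP, 57.5 for the protease inhibitor gene SPINT2 and 57.0 for EPCAM. EPCAM was the highest per length under both ORM1 siRNAs, at 79.6 CPM per kb under siRNA 1 and 76.1 CPM per kb under siRNA 2. CLDN1 was the lowest, at 0.0775 CPM per kb under siRNA 1, 0.105 under siRNA 2 and 0.0934 in control. The apical membrane gene PROM2 was at 0.915, 0.350 and 0.286 CPM per kb in the same order, and the adhesion receptor gene CEACAM1 at 0.576, 0.191 and 0.346. Claudin levels per length in control ran from CLDN1 to CLDN4, at 37.5 CPM per kb, with CLDN7 at 29.3, CLDN3 at 11.9, CLDN12 at 9.80 and CLDN2 at 0.530. CLDN4 led the claudins in control. Per length, CLDN7 led them under siRNA 1, at 45.7 against 30.0 CPM per kb for CLDN4, and under siRNA 2, at 43.1 against 29. In CPM, without the length, CLDN4 stayed above CLDN7, at 141 against 114 under siRNA 1 and 136 against 107 under siRNA 2. The CLDN4 length of 4702 bases takes in exons from position 73799542 of chromosome 7. Its RefSeq promoter ends at 73830995, near the end of the gene at 73832693. A shorter transcript from there would place CLDN4 higher per length, and the order with CLDN7 is therefore uncertain.

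**Figure D2:**
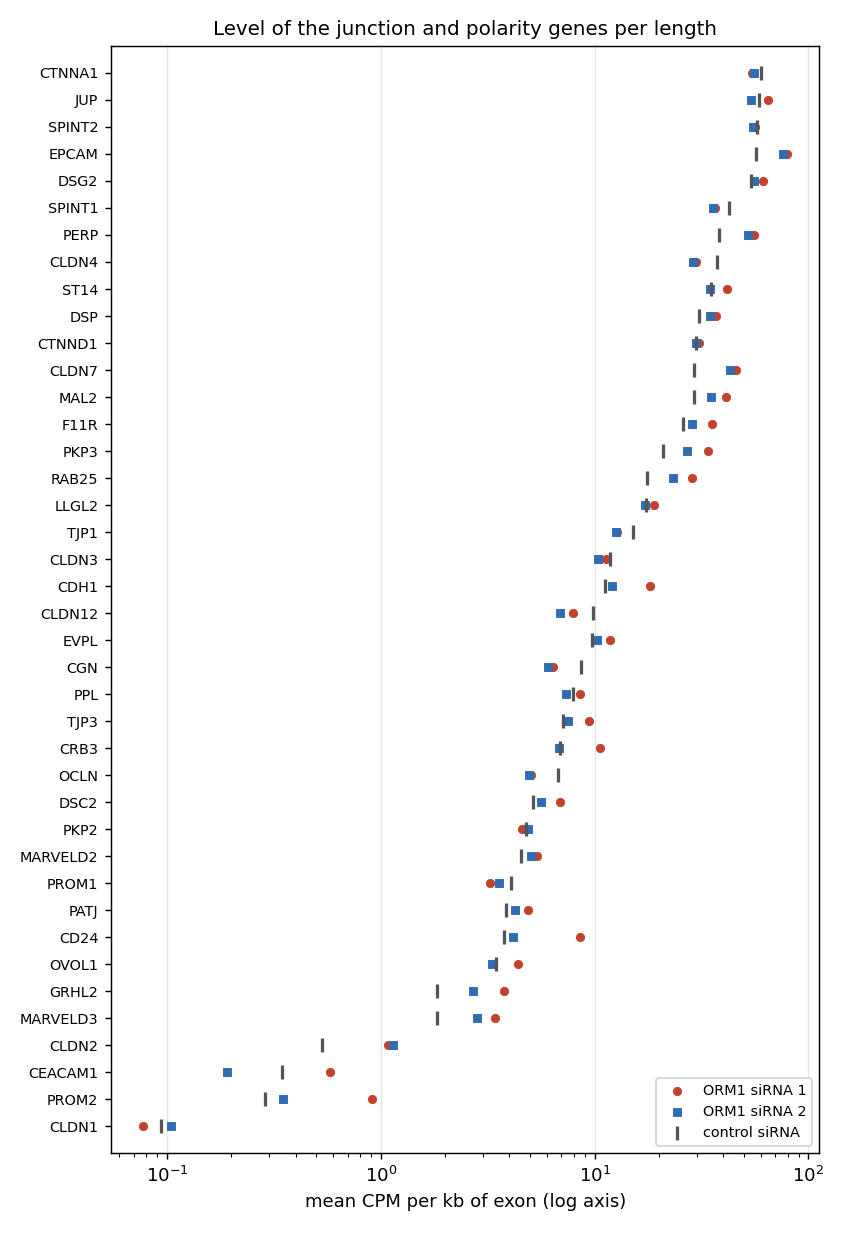
Mean level per kb of exon (log axis) is plotted for each gene under siRNA 1 (red circles), siRNA 2 (blue squares) and control (grey bars), ordered by the control level. The order runs from CLDN1, at 0.0934 CPM per kb in control, to CTNNA1, at 59.7.

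Among the 5 adherens junction genes, 3 rose and 1 fell under siRNA 1, and 2 rose and 2 fell under siRNA 2. CDH1 (ENSG00000039068, chromosome 16), which encodes E-cadherin, had 113, 114 and 112 CPM under siRNA 1, 76.4, 74.4 and 72.1 CPM under siRNA 2, and 70.8, 69.9 and 67.2 CPM in control. All siRNA 1 libraries lay well above the other 6, and the siRNA 2 libraries lay just above control without overlap. The log2 change was 0.70 (SE 0.03; edgeR adjusted p = 2.46e-08) under siRNA 1, or 1.63-fold. Under siRNA 2 it was 0.10 (SE 0.03; edgeR adjusted p = 0.042), or 1.07-fold. This small rise lost its call without any 1 of siRNA 1 replicates 1 to 3, replicate 1 or 2 of siRNA 2, or replicate 2 or 3 of control, at adjusted p-values of 0.062 to 0.15, and with library size as the only scaling, at 0.18. It was also lost in limma-voom (0.063), and in edgeR with upper-quartile scaling (0.061), no count filter (0.061) or only the 2 groups compared (0.096).

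EPCAM, an adhesion protein of epithelial cells, had 197, 206 and 199 CPM under siRNA 1, 186, 196 and 193 CPM under siRNA 2, and 140, 146 and 144 CPM in control. Every library of either ORM1 siRNA was above every control library, with log2 changes of 0.48 (SE 0.03) under siRNA 1 and 0.42 (SE 0.03) under siRNA 2 (edgeR adjusted p = 3.7e-07 and 2.13e-06). JUP, which encodes plakoglobin, a catenin of both adherens junctions and desmosomes, had 310, 325 and 324 CPM under siRNA 1, 264, 265 and 272 CPM under siRNA 2, and 298, 284 and 293 CPM in control. The control libraries lay between those of the ORM1 siRNAs, with no overlap of any groups. Its log2 change was 0.14 (SE 0.03) under siRNA 1 and −0.13 (SE 0.03) under siRNA 2 (edgeR adjusted p = 0.0044 and 0.0073). CTNNA1 averaged 480 ± 5.7 CPM under siRNA 1, 490 ± 3.9 CPM under siRNA 2 and 527 ± 10 CPM in control, a fall by 0.13 and 0.10 on the log2 scale. CTNND1, the p120 catenin that holds cadherins at the membrane, was not called, at 271 ± 2.1, 261 ± 2.7 and 261 ± 9.7 CPM in the same order.

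**Figure D3:**
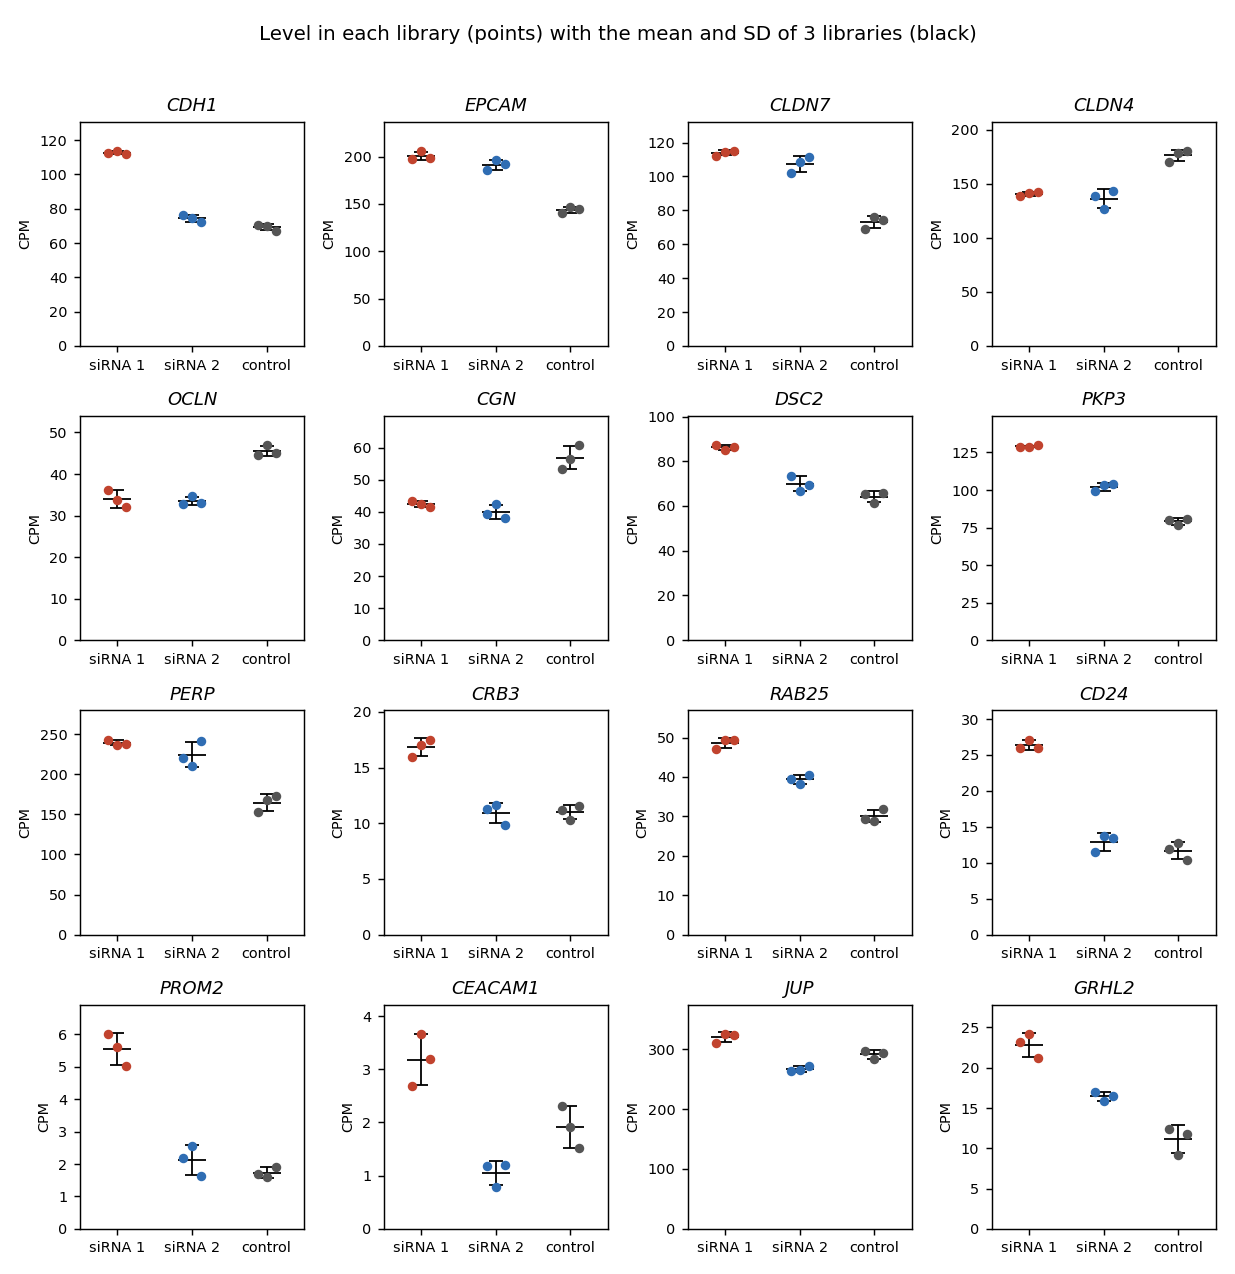
CPM in each library (points; axes start at 0) with the mean and SD of 3 libraries is plotted for 16 of the genes under siRNA 1 (red), siRNA 2 (blue) and control (grey). CDH1 and CD24 are high in siRNA 1 libraries, EPCAM and CLDN7 in those of both ORM1 siRNAs, and CLDN4, OCLN and CGN are highest in control.

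The 6 claudins did not move as a family: 2 rose and 2 fell under siRNA 1, and 2 rose and 2 fell under siRNA 2. CLDN7 had 112, 115 and 115 CPM under siRNA 1, 102, 109 and 111 CPM under siRNA 2, and 68.9, 76.1 and 74.3 CPM in control. It was higher in each library of either ORM1 siRNA than in any control library, with log2 changes of 0.64 (SE 0.04) and 0.55 (SE 0.04) (edgeR adjusted p = 4.4e-07 and 2.43e-06). CLDN2, which forms a pore for cations, was low throughout, with 3.86, 4.08 and 3.09 CPM under siRNA 1, 4.50, 4.03 and 3.10 CPM under siRNA 2, and 2.73, 1.46 and 1.24 CPM in control. No ORM1 siRNA library overlapped control, although control replicate 1 came close. The log2 change was 1.02 (SE 0.27; edgeR adjusted p = 0.012) under siRNA 1 and 1.10 (SE 0.27; edgeR adjusted p = 0.0092) under siRNA 2. The siRNA 1 call was lost without control replicate 2 or 3, at adjusted p-values of 0.054 and 0.05.

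The claudins that fell were CLDN4 and CLDN12. CLDN4, a barrier-forming claudin, averaged 141 ± 1.7 CPM under siRNA 1, 136 ± 8.6 CPM under siRNA 2 and 176 ± 5.2 CPM in control, a fall by 0.32 and 0.37 on the log2 scale (edgeR adjusted p = 0.000103 and 4.49e-05). CLDN12 had 55.5, 52.1 and 52.9 CPM under siRNA 1, 48.6, 41.7 and 49.4 CPM under siRNA 2, and 66.0, 62.4 and 69.7 CPM in control. Its control libraries were the highest in every case, and its log2 change was −0.30 (SE 0.06) under siRNA 1 and −0.50 (SE 0.06) under siRNA 2 (edgeR adjusted p = 0.0028 and 9.02e-05). The ratio of CLDN7 to CLDN4 CPM, chosen after its values were seen and given as a description, was 0.807, 0.812 and 0.807 under siRNA 1, 0.734, 0.857 and 0.776 under siRNA 2, and 0.404, 0.426 and 0.412 in control. CLDN3, another barrier-forming claudin, averaged 14.4 ± 0.50 CPM under siRNA 1, 13.3 ± 0.72 CPM under siRNA 2 and 15.1 ± 1.4 CPM in control, and CLDN1 stayed under 1 CPM in every library. Neither was called.

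Of the 7 other tight junction genes, 4 rose and 3 fell under siRNA 1, and 1 rose and 3 fell under siRNA 2. The genes that fell were OCLN, TJP1 and CGN. OCLN, whose promoter is printed above, had 36.2, 33.6 and 32.0 CPM under siRNA 1, 32.8, 34.6 and 33.1 CPM under siRNA 2, and 44.5, 46.9 and 45.1 CPM in control. Its log2 change was −0.42 (SE 0.05) and −0.44 (SE 0.05) (edgeR adjusted p = 6.68e-05 and 6.03e-05), and its control libraries were all above the other 6. TJP1, which encodes the scaffold protein ZO-1, had 148, 141 and 140 CPM under siRNA 1, 139, 142 and 144 CPM under siRNA 2, and 181, 164 and 166 CPM in control. Its control libraries were again the highest, with log2 changes of −0.25 (SE 0.04) and −0.26 (SE 0.04) (edgeR adjusted p = 0.000442 and 0.000394). CGN, which encodes cingulin, a link between ZO proteins and the cytoskeleton, had 43.4, 42.3 and 41.6 CPM under siRNA 1, 39.4, 42.4 and 38.1 CPM under siRNA 2, and 53.5, 56.4 and 60.7 CPM in control. The ORM1 siRNA libraries all lay below control, and the log2 change was −0.42 (SE 0.06) and −0.51 (SE 0.06) (edgeR adjusted p = 9.29e-05 and 2.8e-05). The pseudogene OCLNP1, which could share reads with OCLN, was at 0.648 to 1.59 CPM.

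MARVELD3, a tetraspan relative of occludin, went the other way, with 21.4, 22.2 and 22.8 CPM under siRNA 1, 16.8, 19.1 and 18.9 CPM under siRNA 2, and 12.3, 11.3 and 11.8 CPM in control. The groups did not overlap, with log2 changes of 0.91 (SE 0.08) and 0.63 (SE 0.08) (edgeR adjusted p = 2.65e-06 and 6.76e-05). Of its exon bases, 16.6% are shared with PHLPP2 on the opposite strand, which was at 31.3 to 41.5 CPM, and the strand setting of the counting is unknown. F11R, which encodes the adhesion molecule JAM-A, had 189, 171 and 181 CPM under siRNA 1, 137, 150 and 148 CPM under siRNA 2, and 142, 125 and 128 CPM in control. It was highest in the siRNA 1 libraries, while siRNA 2 and control overlapped. The log2 change was 0.45 (SE 0.05; edgeR adjusted p = 5.19e-05) under siRNA 1 and 0.14 (SE 0.05; edgeR adjusted p = 0.084) under siRNA 2. The siRNA 2 value passed without siRNA 2 replicate 1 or control replicate 1, at adjusted p-values of 0.042 and 0.015, and in DESeq2, at 0.03. Of the exon bases of F11R, 36.6% are shared with AL591806.3 on the same strand, which was at 0.327 to 8.60 CPM. TJP3, which encodes ZO-3, averaged 39.6 ± 1.0 CPM under siRNA 1, 31.6 ± 0.52 CPM under siRNA 2 and 30.2 ± 1.7 CPM in control, with log2 changes of 0.39 and 0.07, of which the first was called. MARVELD2, or tricellulin, which seals the corners where cells meet, averaged 28.7 ± 1.5, 27.0 ± 0.52 and 24.3 ± 1.1 CPM in the same order, and likewise rose under siRNA 1, by 0.24, against 0.15 under siRNA 2, which was not called.

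Of the 8 desmosomal genes, 6 rose and 0 fell under siRNA 1, and 4 rose and 0 fell under siRNA 2. Among all tested genes, 15.7% rose and 14.8% fell under siRNA 1, and 14.2% rose and 12.6% fell under siRNA 2. At such shares, 0 falls among 8 genes says little. JUP, also a desmosomal gene, is counted with the adherens junctions here, and it rose under siRNA 1 and fell under siRNA 2. In edgeR the falls at an unadjusted p below 0.05 numbered 0 under siRNA 1 and 1 under siRNA 2, and DESeq2 and limma-voom gave the same numbers and 0 falls after adjustment. With library size as the only scaling, PPL fell under siRNA 2, at −0.15 (edgeR adjusted p = 0.037). PKP3, a plakophilin that binds desmosomal cadherins, had 129, 128 and 130 CPM under siRNA 1, 99.2, 103 and 104 CPM under siRNA 2, and 80.3, 76.7 and 80.5 CPM in control. The groups were fully separate, with log2 changes of 0.70 (SE 0.03) and 0.37 (SE 0.03) (edgeR adjusted p = 1.74e-08 and 5.61e-06). PERP, a tetraspan desmosomal protein and p53 target, had 243, 237 and 238 CPM under siRNA 1, 221, 211 and 242 CPM under siRNA 2, and 152, 168 and 173 CPM in control. All 6 ORM1 siRNA libraries were above control, with log2 changes of 0.54 (SE 0.05) and 0.45 (SE 0.05) (edgeR adjusted p = 9.49e-06 and 5.52e-05).

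The desmosomal cadherin gene DSC2 had 87.1, 85.1 and 86.5 CPM under siRNA 1, 73.5, 66.9 and 69.4 CPM under siRNA 2, and 65.2, 61.5 and 65.8 CPM in control. The groups did not overlap, and the log2 change was 0.43 (SE 0.04; edgeR adjusted p = 8.5e-06) under siRNA 1 and 0.12 (SE 0.04; edgeR adjusted p = 0.043) under siRNA 2. The siRNA 2 call was lost without any 1 of siRNA 1 replicates 1 to 3, replicate 1 or 3 of siRNA 2, or replicate 1 or 2 of control, at adjusted p-values of 0.058 to 0.16, and with library size as the only scaling, at 0.14. It was also lost in limma-voom (0.055), and in edgeR with upper-quartile scaling (0.054), no count filter (0.069) or only the 2 groups compared (0.083). DSP, the desmoplakin gene whose promoter holds 2 E-boxes, averaged 374 ± 11 CPM under siRNA 1, 349 ± 2.7 CPM under siRNA 2 and 310 ± 8.2 CPM in control, with rises of 0.27 and 0.17. The cadherin gene DSG2 averaged 380 ± 3.6 CPM under siRNA 1, 346 ± 7.5 CPM under siRNA 2 and 332 ± 7.1 CPM in control. EVPL, which encodes envoplakin, averaged 88.4 ± 1.1, 77.0 ± 4.4 and 73.4 ± 3.0 CPM in the same order, and both genes were called under siRNA 1, at 0.20 and 0.27, and not under siRNA 2, at 0.06 and 0.07. PKP2 and PPL, which encode plakophilin 2 and periplakin, were not called against control, although PPL passed without siRNA 1 replicate 3, at a log2 change of 0.15 and an adjusted p of 0.039 under siRNA 1, and without siRNA 2 replicate 2, at −0.16 and 0.038 under siRNA 2. The summed level of the 8 genes was 1396 ± 16.5 CPM under siRNA 1, 1260 ± 13.5 CPM under siRNA 2 and 1118 ± 12.1 CPM in control.

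All 5 polarity and traffic genes rose under siRNA 1, and 2 of the 5 rose under siRNA 2. None of them fell in edgeR, DESeq2 or limma-voom under either siRNA, with 0 at an unadjusted p below 0.05 in each. Of all tested genes, 15.7% rose and 14.8% fell under siRNA 1, and 14.2% rose and 12.6% fell under siRNA 2. At such shares, 0 falls among 5 genes says little. CRB3, with the 5 E-boxes, had 15.9, 17.0 and 17.5 CPM under siRNA 1, 11.3, 11.6 and 9.86 CPM under siRNA 2, and 11.2, 10.3 and 11.5 CPM in control. The siRNA 1 libraries stood apart and the other groups overlapped, with a log2 change of 0.61 (SE 0.09; edgeR adjusted p = 0.000277) under siRNA 1 and −0.01 (SE 0.09; edgeR adjusted p = 0.94) under siRNA 2. CRB3 shares 0.94% of its exon bases with DENND1C on the opposite strand, which was at 7.14 to 15.1 CPM. RAB25 had 47.2, 49.4 and 49.4 CPM under siRNA 1, 39.4, 38.3 and 40.5 CPM under siRNA 2, and 29.4, 28.9 and 31.8 CPM in control. The groups did not overlap, at 0.70 (SE 0.05) under siRNA 1 and 0.39 (SE 0.05) under siRNA 2 (edgeR adjusted p = 6.33e-07 and 8.96e-05).

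MAL2, a protein of transcytosis to the apical membrane, had 137, 146 and 142 CPM under siRNA 1, 125, 116 and 122 CPM under siRNA 2, and 94.7, 104 and 101 CPM in control. It was again graded without overlap, with log2 changes of 0.50 (SE 0.04) and 0.27 (SE 0.04) (edgeR adjusted p = 2.74e-06 and 0.000431). PATJ, a scaffold of the Crumbs complex, averaged 58.6 ± 1.1 CPM under siRNA 1, 51.2 ± 2.2 CPM under siRNA 2 and 46.3 ± 3.7 CPM in control, with log2 changes of 0.34 and 0.15. The siRNA 2 value, at an edgeR adjusted p of 0.075, passed only without control replicate 1, at 0.0071. LLGL2, a basolateral polarity protein, averaged 151 ± 1.4, 137 ± 0.56 and 137 ± 4.1 CPM in the same order, with log2 changes of 0.14 and −0.01, of which the first was called.

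The 7 surface and protease genes contained the 3 largest differences between the siRNAs in the set. Under siRNA 1, 4 rose and 2 fell, and under siRNA 2, 0 rose and 3 fell, with 0 rises also in DESeq2 and limma-voom and at an unadjusted p below 0.05 in each. All these tests use the same libraries. The shares of all tested genes were 15.7% and 14.8% under siRNA 1, and 14.2% and 12.6% under siRNA 2. At such shares, 0 rises among 7 genes says little. PROM2, a pentaspan protein of membrane protrusions, had 6.01, 5.61 and 5.02 CPM under siRNA 1, 2.18, 2.55 and 1.64 CPM under siRNA 2, and 1.70, 1.59 and 1.92 CPM in control. All siRNA 1 libraries were far above the rest, and siRNA 2 overlapped control. Its log2 change was 1.68 (SE 0.18; edgeR adjusted p = 2.38e-05), or 3.19-fold, under siRNA 1 and 0.29 (SE 0.18; edgeR adjusted p = 0.30) under siRNA 2. CD24, a glycosylated surface protein of epithelial progenitors, had 25.9, 27.1 and 26.0 CPM under siRNA 1, 11.5, 13.8 and 13.4 CPM under siRNA 2, and 11.9, 12.7 and 10.4 CPM in control. The pattern was the same, with a log2 change of 1.18 (SE 0.09; edgeR adjusted p = 1.7e-06) under siRNA 1 and 0.14 (SE 0.09; edgeR adjusted p = 0.31) under siRNA 2.

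CEACAM1, an adhesion receptor of the carcinoembryonic antigen family, was low and changed in opposite directions. It had 2.69, 3.66 and 3.20 CPM under siRNA 1, 1.18, 0.794 and 1.20 CPM under siRNA 2, and 2.32, 1.91 and 1.51 CPM in control. The control libraries lay between the others, with no overlap. The log2 change was 0.73 (SE 0.22; edgeR adjusted p = 0.025) under siRNA 1 and −0.85 (SE 0.23; edgeR adjusted p = 0.015) under siRNA 2. Dropping replicate 2 or 3 of siRNA 1 or of control ended the siRNA 1 call, at 0.064 to 0.10, as did testing with no count filter, at 0.059. The siRNA 2 call was lost without siRNA 2 replicate 2 or control replicate 1, at adjusted p-values of 0.06 and 0.065.

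The membrane protease matriptase, encoded by ST14, and its inhibitors did not move together. ST14 averaged 182 ± 0.82 CPM under siRNA 1, 151 ± 3.4 CPM under siRNA 2 and 152 ± 7.2 CPM in control, with a rise of 0.25 under siRNA 1 (edgeR adjusted p = 0.000161) and a log2 change of −0.01 under siRNA 2, which was not called. The inhibitor gene SPINT1 averaged 129 ± 2.9 CPM under siRNA 1, 126 ± 4.2 CPM under siRNA 2 and 150 ± 6.8 CPM in control, a fall by 0.22 and 0.25 (edgeR adjusted p = 0.000935 and 0.00045). SPINT2, a second inhibitor, was not called, at 292 ± 13, 286 ± 11 and 299 ± 11 CPM in the same order. PROM1, the relative of PROM2 known as CD133, averaged 24.2 ± 0.54 CPM under siRNA 1, 26.6 ± 1.5 CPM under siRNA 2 and 30.4 ± 1.3 CPM in control. It fell by 0.33 under siRNA 1 and by 0.19 under siRNA 2 (edgeR adjusted p = 0.0011 and 0.031). Dropping siRNA 2 replicate 2 or 3, or control replicate 2 or 3, ended the siRNA 2 call, at adjusted p-values of 0.064 to 0.14, as did a fit with the replicate number as a block, at 0.054. So did testing with no count filter, at an edgeR adjusted p of 0.05.

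Both epithelial transcription factors in the set rose under siRNA 1. GRHL2, a Grainyhead-like activator of junction genes, had 23.2, 24.2 and 21.2 CPM under siRNA 1, 17.0, 15.8 and 16.4 CPM under siRNA 2, and 12.4, 9.20 and 11.8 CPM in control. The groups formed separate steps, with a log2 change of 1.04 (SE 0.11; edgeR adjusted p = 1.42e-05) under siRNA 1 and 0.56 (SE 0.11; edgeR adjusted p = 0.0018) under siRNA 2. OVOL1, a repressor of mesenchymal genes, had 17.6, 17.2 and 15.8 CPM under siRNA 1, 12.2, 12.8 and 13.1 CPM under siRNA 2, and 12.4, 14.2 and 13.4 CPM in control. It was highest in the siRNA 1 libraries, at 0.34 (SE 0.08; edgeR adjusted p = 0.0073), against −0.07 (SE 0.08; edgeR adjusted p = 0.60) under siRNA 2.

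The repressors and mesenchymal genes listed beside the set did not follow a single direction. ZEB1, an E-box-binding repressor of CDH1 and CRB3, had 5.38, 6.51 and 5.79 CPM under siRNA 1, 10.2, 9.41 and 7.57 CPM under siRNA 2, and 12.1, 13.9 and 12.4 CPM in control. The groups were separate in the reverse order to GRHL2, with a log2 change of −1.12 (SE 0.13; edgeR adjusted p = 3.61e-05) under siRNA 1 and −0.50 (SE 0.13; edgeR adjusted p = 0.011) under siRNA 2, a call that ended without control replicate 2, at 0.05. SNAI2, which encodes the repressor Slug, had 1.11, 1.40 and 2.09 CPM under siRNA 1, 0.182, 0.240 and 0.355 CPM under siRNA 2, and 0.742, 0.946 and 1.20 CPM in control. It fell by 1.88 (SE 0.35; edgeR adjusted p = 0.0016) under siRNA 2, and was not called under siRNA 1, at 0.67 (SE 0.32; edgeR adjusted p = 0.14), where 1 library overlapped control. SNAI1, which encodes Snail, and TWIST1, another repressor, were not called, at 10.5 to 14.7 CPM and 0.809 to 1.93 CPM over all libraries. ZEB2, TWIST2 and CDH2, the N-cadherin gene, were at or near 0.

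The mesenchymal filament gene VIM had a log2 change of −0.87 (SE 0.11; edgeR adjusted p = 9.86e-05) under siRNA 1 and −0.11 (SE 0.11; edgeR adjusted p = 0.55) under siRNA 2. FN1, which encodes the matrix protein fibronectin, had 81.8, 78.4 and 78.6 CPM under siRNA 1, 50.9, 52.4 and 50.0 CPM under siRNA 2, and 48.3, 47.6 and 44.4 CPM in control. It rose by 0.77 (SE 0.04; edgeR adjusted p = 6.9e-08) under siRNA 1, opposite to VIM, and by 0.13 (SE 0.04; edgeR adjusted p = 0.039) under siRNA 2, a call lost without siRNA 1 replicate 2 or 3, any siRNA 2 replicate, or control replicate 2 or 3, at 0.054 to 0.15, and with library size as the only scaling, at 0.13. That call was also lost in limma-voom (0.056), and in edgeR with upper-quartile scaling (0.053), no count filter (0.056) or only the 2 groups compared (0.076). Of the 9 genes with E-box letters in the promoter, 6 rose and 3 fell under siRNA 1, with a median log2 change of 0.27, and of the 16 without them, 9 rose and 5 fell, with a median of 0.19. Under siRNA 2 the numbers were 3 and 3 with the letters, at a median of 0.06, and 3 and 7 without, at −0.02. The split covers only the 25 genes with a promoter in the RefSeq table. Those without were CDH1, CTNND1, EPCAM, MARVELD3, F11R, PKP2, PKP3, PPL, EVPL, LLGL2, MAL2, ST14, SPINT2, GRHL2 and OVOL1. All 8 falls under siRNA 1 and all 10 under siRNA 2 were among the 25. No test was made of this split.

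**Figure D4:**
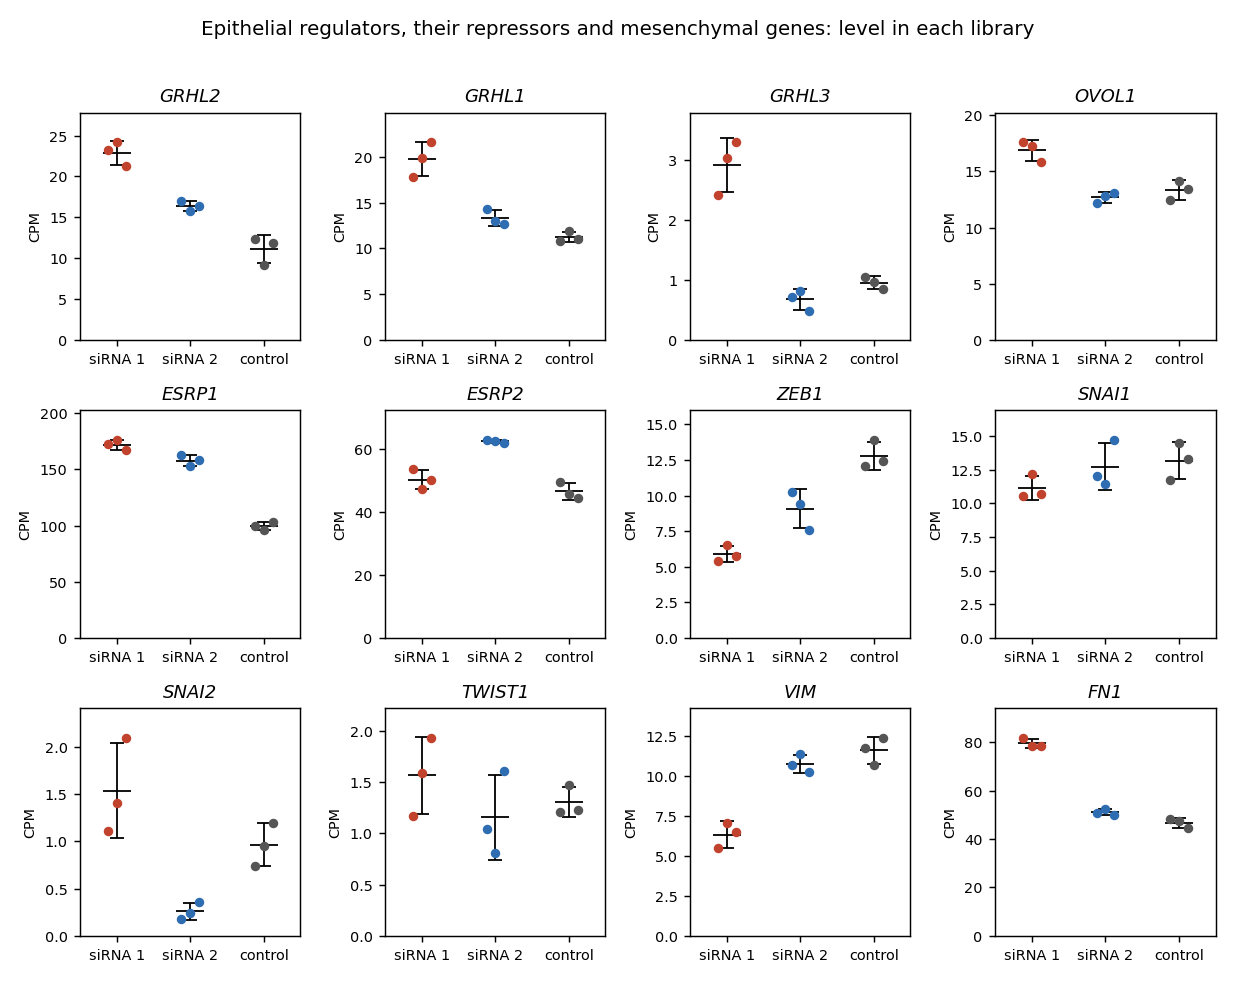
CPM in each library (points; axes start at 0) with the mean and SD of 3 libraries is plotted for epithelial regulators, repressors and mesenchymal genes under siRNA 1 (red), siRNA 2 (blue) and control (grey). GRHL2 steps down through the groups in that order while ZEB1 steps up, and SNAI2 is lowest under siRNA 2.

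A second list held 65 other genes of the same junctions and polarity complexes, of which 53 could be tested. Of these, 13 rose and 8 fell under siRNA 1, or 24.5% and 15.1%, beside 15.7% and 14.8% of all tested genes, with a median log2 change of −0.03. Under siRNA 2, 10 rose and 13 fell, or 18.9% and 24.5%, beside 14.2% and 12.6%, with a median of −0.07. The largest called changes under siRNA 1 were in GRHL3, GRHL1, ESRP1 and ILDR1. GRHL3, a Grainyhead-like factor of barrier formation, had 2.43, 3.03 and 3.30 CPM under siRNA 1, 0.728, 0.824 and 0.483 CPM under siRNA 2, and 1.06, 0.962 and 0.848 CPM in control. Its siRNA 1 libraries stood well above the rest, at 1.61 (SE 0.23; edgeR adjusted p = 0.000225), while siRNA 2 gave −0.50 (SE 0.24; edgeR adjusted p = 0.16). GRHL1, another member of that family, had a log2 change of 0.81 (SE 0.09; edgeR adjusted p = 3.1e-05) under siRNA 1 and 0.24 (SE 0.09; edgeR adjusted p = 0.070) under siRNA 2, where DESeq2 gave an adjusted p of 0.048. ESRP1, a splicing factor of epithelial cells, had 172, 176 and 167 CPM under siRNA 1, 163, 153 and 158 CPM under siRNA 2, and 99.9, 96.0 and 103 CPM in control. It was among the largest rises under both siRNAs, at 0.79 (SE 0.04) and 0.66 (SE 0.04) (edgeR adjusted p = 2.2e-08 and 1.75e-07).

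ILDR1, a protein of tricellular junctions, rose by 0.73 (SE 0.15; edgeR adjusted p = 0.003) under siRNA 1, against 0.42 (SE 0.15; edgeR adjusted p = 0.060) under siRNA 2. Under siRNA 2 the others with the largest changes were LAD1, CRB2 and NECTIN4. LAD1, which encodes the anchoring filament protein ladinin, rose by 0.68 (SE 0.06) under siRNA 1 and 0.50 (SE 0.06) under siRNA 2 (edgeR adjusted p = 2.29e-06 and 3.39e-05). CRB2, a Crumbs family gene, had 0.472, 0.858 and 0.560 CPM under siRNA 1, 0.121, 0.225 and 0.128 CPM under siRNA 2, and 0.242, 0.641 and 0.530 CPM in control. It fell by 1.57 (SE 0.49; edgeR adjusted p = 0.032) under siRNA 2, a call that ended when siRNA 2 replicate 1 or 3, or control replicate 2 or 3, was dropped, at 0.085 to 0.12, and in limma-voom, at 0.10. In edgeR that call also ended with no count filter, at 0.056, and with only the 2 groups compared, at 0.059. NECTIN4, a cell adhesion receptor, fell by 0.95 (SE 0.26; edgeR adjusted p = 0.017) under siRNA 2, a call lost without siRNA 2 replicate 1 or control replicate 2, at 0.066 and 0.078.

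Set directly against each other, the ORM1 siRNAs differed in 23 of the 40 genes, all of them higher under siRNA 1, where 8.09% of all tested genes were called higher and 9.83% lower, or 17.9% in either direction. None of the 40 was called lower in edgeR's quasi-likelihood test, and 1 was lower at an unadjusted p below 0.05, as in DESeq2 and limma-voom, which also gave 0 after adjustment. Among the 15069 genes of at least 1 CPM in 3 libraries, 1863 were called higher and 2113 lower under siRNA 1. The median log2 difference of the set was 0.17, against 0.01 for all genes. The largest were 1.59 (SE 0.23) for CEACAM1, 1.39 (SE 0.18) for PROM2, 1.03 (SE 0.09) for CD24, 0.62 (SE 0.09) for CRB3 and 0.60 (SE 0.03) for CDH1, with edgeR adjusted p-values of 2.92e-07 to 0.000547. GRHL2 and OVOL1 were higher by 0.48 (SE 0.10) and 0.41 (SE 0.08), and ZEB1 was lower by 0.62 (SE 0.13; edgeR adjusted p = 0.0051). By role, the calls took in 6 of 8 desmosomal, 5 of 5 polarity and traffic, 4 of 7 surface and protease, 2 of 5 adherens and 4 of 13 tight junction genes, and both transcription factors. EPCAM, CLDN7, CLDN4, OCLN, TJP1, CGN and PERP were not called between the siRNAs, at log2 differences of 0.01 to 0.09. The calls of MARVELD3, CLDN12, DSP and PATJ each ended when single libraries were left out. MARVELD3 (0.28) was no longer called when siRNA 1 replicate 2 or 3 or siRNA 2 replicate 1 was dropped, at 0.07 to 0.09. CLDN12 (0.20) lost its call without any library other than siRNA 2 replicate 3 or control replicate 3, at 0.05 to 0.16, and its difference was 0.12 without siRNA 2 replicate 2. DSP (0.10) lost it without siRNA 1 replicate 1 or 2, any siRNA 2 replicate, or control replicate 2, at 0.054 to 0.15, and PATJ (0.20) without any siRNA 1 replicate or siRNA 2 replicate 1 or 3, at 0.05 to 0.12. With no count filter, CLDN12, DSP and PATJ were not called, at edgeR adjusted p-values of 0.11, 0.082 and 0.065. CLDN12 was also not called in limma-voom, at 0.05, or in edgeR with only the 2 groups compared, at 0.054.

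**Figure D5:**
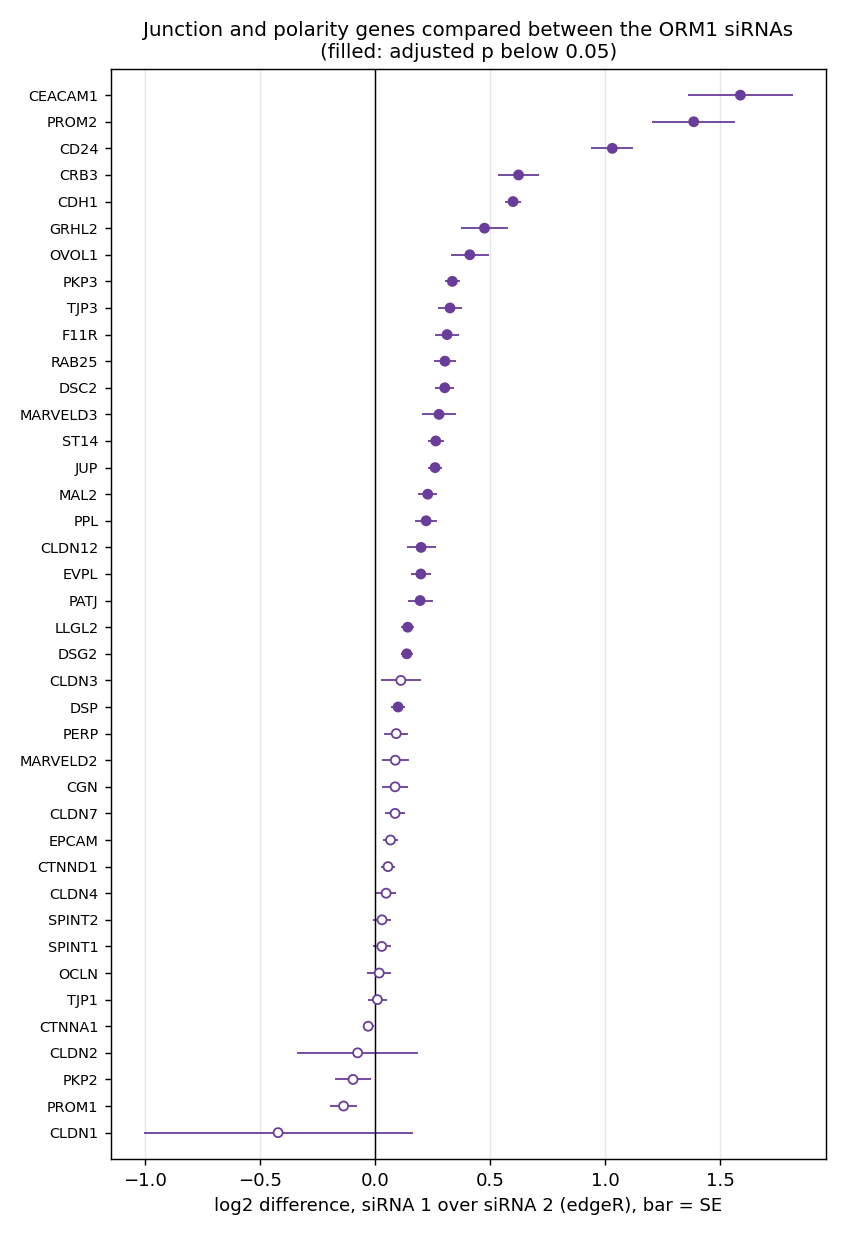
The log2 difference of siRNA 1 over siRNA 2 is plotted for each of the 40 genes in order of size; points are edgeR estimates, bars are standard errors and filled points have an adjusted p below 0.05. All 23 filled points lie right of 0, from DSP at 0.10 to CEACAM1 at 1.59.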

How the data were processed

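Per the labels, the authors deposited raw, whole-number counts for Ensembl genes in 9 HCT116 libraries. Per the submitters' processing notes the build was hg19. For the aligner, counter, annotation and strand setting, nothing is given in the sources used here. The value 4 occurred 11894 times, the value 3 only 6787 times and the value 5 only 4317 times, so 1 count may stand for less than 1 fragment. Samples were grouped by their labels. The gene set, lists and named genes were chosen with earlier results of these data known. Values in every library are given for CDH1, EPCAM, TJP1, OCLN, JUP and those of the 40 genes called with an absolute log2 change of at least 0.4. Named other genes are the 4 largest called changes per siRNA against control.

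One quasi-likelihood model was fitted to all 9 libraries in edgeR 4.0.16 (R 4.3.3) after filterByExpr and TMM scaling, with Benjamini-Hochberg adjustment over 20932 genes. SE values are the absolute log2 change divided by the square root of F. Exon lengths came from GENCODE release 29 on GRCh38, with the exons of all transcripts of a gene merged. Alternatives were DESeq2 1.42.0, limma-voom (limma 3.58.1), other scalings, filters and thresholds, only the 2 groups compared, a replicate block and each library left out. The fit was also run on simulated counts with known changes, 50 genes at each size, drawn from genes above a small count minimum. It recovered 18% of 1.25-fold, 46% of 1.5-fold, 64% of 2-fold and 80% of 3-fold changes. There were 7 false calls among 111. The simulation gave 111 calls, against 6389 under siRNA 1 in the data, and the Benjamini-Hochberg adjustment depends on that number. The shares recovered are thus not those of the data. A gene that was not called may still have changed.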

Additional observations from a re-analysis of the deposited data

Results flagged for a closer look

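The genes JUP and CEACAM1 were called against control in opposite directions under the ORM1 siRNAs, and the difference between the siRNAs was tested itself. JUP was at a log2 change of 0.14 under siRNA 1 and −0.13 under siRNA 2, and the log2 difference of siRNA 1 over siRNA 2 was 0.261 (SE 0.03; edgeR adjusted p = 9.23e-05). CEACAM1 was at 0.73 under siRNA 1 and −0.85 under siRNA 2, with a log2 difference of 1.589 (SE 0.23; edgeR adjusted p = 0.000508). CEACAM1 was a low gene, at 0.794 to 3.66 CPM, and shares 3.35% of its exon bases with LIPE-AS1 on the opposite strand, at 0.545 to 1.52 CPM. The part of that overlap in the result was not tested.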

How the results depend on the processing

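The counts of called genes stayed within 1.5 times of the reported ones in 223 of 228 alternative settings. All 5 exceptions were in the second list of 65 genes. At an adjusted p below 0.01, 8 of them fell under siRNA 2 against control, and 5 were higher and 3 lower under siRNA 1 than under siRNA 2. Without siRNA 1 replicate 2, and without siRNA 2 replicate 3, 5 were higher under siRNA 1 than under siRNA 2, where the full data gave 10. The stricter threshold and the smaller number of libraries by construction leave fewer calls. Among the genes followed over the settings, no called change reversed. Changes that were not called could change sign. For CLDN1 under siRNA 1 the log2 change went from −0.257 to 0.113 without siRNA 1 replicate 1. The keratins and ORM1 were not followed in this way.

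With any 1 library left out, 24 to 26 of the 40 genes rose and 8 fell under siRNA 1, 10 to 13 rose and 9 to 10 fell under siRNA 2, and 19 to 23 were higher and 0 lower under siRNA 1 than under siRNA 2. In the second list, 12 to 14 rose and 6 to 9 fell under siRNA 1, 9 to 10 rose and 9 to 13 fell under siRNA 2, and 5 to 11 were higher and 4 to 7 lower under siRNA 1 than under siRNA 2. With the replicate number as a block, 26 rose and 8 fell under siRNA 1, 12 rose and 9 fell under siRNA 2, and 23 were higher and 0 lower under siRNA 1 than under siRNA 2. Same-numbered libraries deviated together at correlations of −0.019 to 0.0371, and differently numbered ones at −0.0314 to 0.0186. No strong deviation was shared by number, but these values cannot tell whether replicates were handled in pairs. Depth limits low genes most, such as ORM1, CLDN1, CEACAM1, SNAI2 and CRB2.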

Other observations

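ESRP2, the second epithelial splicing factor of the ESRP family, was chosen after its values were seen. It had 53.5, 47.4 and 50.0 CPM under siRNA 1, 62.8, 62.5 and 61.8 CPM under siRNA 2, and 49.5, 45.7 and 44.3 CPM in control. It rose by 0.42 (SE 0.05; edgeR adjusted p = 7.81e-05) under siRNA 2 and was not called under siRNA 1, at 0.11 (SE 0.05; edgeR adjusted p = 0.13), although it was without control replicate 1, at 0.042. The difference of siRNA 1 over siRNA 2 was −0.31 (SE 0.05; edgeR adjusted p = 0.0013).

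The keratins of the colorectal epithelium list, described after their values were seen, moved in different directions. KRT8, KRT18 and KRT19 fell by 0.38, 0.35 and 0.21 under siRNA 1 and by 0.26, 0.28 and 0.30 under siRNA 2, on the log2 scale, with edgeR adjusted p-values of 3.25e-06 to 0.000545. KRT20, a keratin of differentiated intestinal cells, had 2.22, 2.23 and 1.72 CPM under siRNA 1, 0.485, 0.449 and 0.483 CPM under siRNA 2, and 0.242, 0.609 and 0.424 CPM in control. It rose by 2.27 (SE 0.31; edgeR adjusted p = 0.000141) under siRNA 1, against 0.16 (SE 0.32; edgeR adjusted p = 0.79) under siRNA 2.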
